A study of Mus musculus with 12 samples.

Results

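Pericytes are the cells that wrap the capillaries of the heart. This account covers 7 genes that mark them: Vtn, Rgs5, Pdgfrb, Notch3, Mcam, Cspg4 and Higd1b. They were picked by name, as widely used pericyte markers, out of 78317 gene identifiers in the table of read counts, and each was set beside Acta2, the alpha smooth muscle actin that marks the muscle cells of larger vessels. All 7 were measured well enough to be tested. The hearts came from C57BL/6J mice of the F1 generation. One group had fathers whose hearts were injured by freezing on postnatal day 1, and the other had fathers that were not injured. Each group had 6 ventricle libraries. The labels give the time of collection as 3 wpp but also call the mice adult. They list 3 males and 3 females for the injured fathers and 4 males and 2 females for the uninjured fathers, without saying which animal is which, and name no father or litter. Some mice may share a father, and the p-values rest on the spread among these libraries alone.

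Pericytes sit within the basement membrane of capillaries, where they steady the vessel wall and take part in the control of flow. Endothelial cells recruit them with the growth factor PDGF-B, which binds the receptor made by Pdgfrb, and Notch ligands on endothelial cells act on the receptor made by Notch3. Pericytes and vascular smooth muscle cells together are called mural cells, and they share several markers, while a high content of Acta2 belongs mainly to smooth muscle. In whole tissue, fewer cells of a type and less RNA per cell cannot be told apart.

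None of the 7 genes differed between the groups after correction over all genes, and Acta2 did not pass either. Of the members, 6 had a higher mean in offspring of injured males, where 50.1% of all genes were higher, and 1, Vtn, had a lower one. Most of the differences were small: the median log2 fold change of the 7 was 0.07, against 0.00019 over all 17130 genes tested. Called genes, with an edgeR adjusted p under the threshold of 0.05, made up 0.105% of all genes, with 0.0525% called higher and 0.0525% called lower. Of the members, 2 had an unadjusted p under 0.05 (Vtn and Cspg4), where 8.96% of all genes did, 4.28% of them higher and 4.68% lower. No member had CPM values that did not overlap between the groups, against 1.06% of all genes (0.432% higher and 0.625% lower). The comparison used 5 libraries from offspring of injured males and all 6 from offspring of uninjured males. Injured-sire replicate 16 did not enter the comparison, since the submitters dropped it after a principal component analysis, and its values are given separately. Library totals ran from 30537315 to 42090257 counts. In counts simulated for this comparison, 8 of 50 genes with a 1.25-fold change were called, 31 of 50 with a 1.5-fold change and 40 of 50 with a 2-fold change. The members' fold changes, 0.829 to 1.21, were of the smallest simulated size or less, so most changes of that size would be missed.

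The stretches of DNA just before the genes differ in their makeup. They are shown for Vtn, which was the member with the lowest fold change, and for Notch3 and Cspg4. The Pearson r of Notch3 with Cspg4 over 11 libraries was 0.58, higher than for most pairs (permutation test, adjusted p = 0.376). Without the 2 libraries farthest from the median of Notch3, r was 0.16. Measured as deviations from the group means, r was 0.445, and 0.406 without the 2 farthest libraries on that scale. Each line holds the 250 bases before the gene's start in RefSeq on GRCm38.p6, a different build from that of the counts. Capitals mark a core promoter motif, TATAAA, on either strand. They also mark the GC box that transcription factors of the Sp family bind, GGGCGG, on either strand.
Vtn, chr11:78498870-78499119, plus strand: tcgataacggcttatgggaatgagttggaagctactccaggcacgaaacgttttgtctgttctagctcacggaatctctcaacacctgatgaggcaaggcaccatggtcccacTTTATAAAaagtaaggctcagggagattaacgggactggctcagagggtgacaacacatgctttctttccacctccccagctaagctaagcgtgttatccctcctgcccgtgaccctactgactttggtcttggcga
Notch3, chr17:32166891-32167140, minus strand: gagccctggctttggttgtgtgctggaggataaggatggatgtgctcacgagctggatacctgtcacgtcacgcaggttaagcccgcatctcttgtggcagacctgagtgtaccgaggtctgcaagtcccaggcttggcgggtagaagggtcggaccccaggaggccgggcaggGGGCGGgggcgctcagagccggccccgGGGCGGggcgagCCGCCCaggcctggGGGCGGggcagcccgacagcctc
Cspg4, chr9:56864854-56865103, plus strand: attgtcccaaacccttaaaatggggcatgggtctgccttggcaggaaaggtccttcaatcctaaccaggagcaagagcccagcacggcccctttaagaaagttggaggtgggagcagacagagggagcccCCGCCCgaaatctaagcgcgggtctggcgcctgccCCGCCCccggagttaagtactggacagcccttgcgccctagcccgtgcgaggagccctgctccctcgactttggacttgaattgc
The Vtn window held no GC box and 2 copies of TATAAA, 1 on each strand. These overlap in a single stretch and begin 137 and 135 bases before the start. Whether that stretch acts in the promoter was not tested. The Notch3 window held 4 GC boxes and the Cspg4 window 2, and neither held TATAAA. Mcam, not printed, had 5 GC boxes, and Rgs5 had neither motif. Acta2 also had neither. Windows of Pdgfrb and Higd1b were not examined. Among 32851 RefSeq windows of the same length, 32.7% held a GC box and 12.4% held TATAAA. The bases G and C made up 50.4% of the Vtn window, 53.6% of that of Rgs5, 60.4% of that of Cspg4, 68.8% of that of Notch3 and 73.6% of that of Mcam.

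Per unit of gene length, the members spanned a wide range of levels. Levels between genes are given as CPM per kilobase of exon (RPKM), and levels of 1 gene between libraries as scaled counts per 1000000 (CPM). In offspring of uninjured males, Rgs5 was the most abundant member at 139 ± 13.5 RPKM (SD, n = 6). Pdgfrb followed at 22.3 ± 1.73, Mcam at 18.2 ± 1.26 and Vtn at 14.5 ± 0.714 RPKM. Notch3 stood at 7.61 ± 0.557, Higd1b at 5.79 ± 0.497 and Cspg4 at 3.14 ± 0.230 RPKM. The intervals of 1 SD did not overlap between neighbours in this order. Acta2 was above all of them at 213 ± 32.9 RPKM. Within a group, the libraries differed from each other by a coefficient of variation of 4.92% to 14.1% for the members. Counting alone would give 0.659% for Rgs5 and 7.12% for Higd1b, which had the fewest counts, 146 to 272 in the libraries compared.

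Both receptors were close to level. Pdgfrb (chromosome 18, 61178222 to 61218133, GRCm39) had 157, 123, 132, 113 and 115 CPM in the injured-sire replicates 12, 13, 14, 15 and 17. In offspring of uninjured males it ran from 108 over a median of 125 to 131 CPM. Replicates 12 and 14 lay above the other group, and the rest lay within its range. The log2 fold change was 0.07 ± 0.0771 (SE), with a 95% interval of 0.937-fold to 1.17-fold (edgeR adjusted p = 0.865). Without replicate 12 it was -0.02, without 15 it was 0.11, without 17 it was 0.10 and without uninjured-sire replicate 21 it was 0.03. Airway and fat covariates gave 0.12.

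Notch3 (chromosome 17, 32339794 to 32385826) had 78.9, 62.6, 73.8, 62.2 and 59.0 CPM in the same replicates, against a range of 54.9 to 68.1 with a median of 61.8 CPM. Here too replicates 12 and 14 lay above the other group. Its log2 fold change was 0.13 ± 0.0747 (SE), with an interval of 0.982-fold to 1.22-fold (edgeR adjusted p = 0.65). Without replicate 12 it was 0.06, and with replicate 16 included 0.08. The noncoding gene Gm17276 overlaps Notch3 on the opposite strand over 21055 bases. Counting was by strand, and Gm17276 had 178 to 553 counts.

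Rgs5 encodes a regulator that speeds the shut-off of G proteins, and it is a widely used marker of pericytes. The gene (chromosome 1, 169483070 to 169523382) had 718, 603, 653, 600 and 599 CPM in offspring of injured males, and 545 to 694 with a median of 650 CPM in offspring of uninjured males. The groups overlapped nearly fully. Rgs5 had a log2 fold change of 0.01 ± 0.0665 (SE), with an interval of 0.912-fold to 1.10-fold (adjusted p = 0.991 in edgeR). The sign turned in 6 of 22 alternative settings.

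Mcam and Cspg4 encode proteins of the cell surface. Mcam (CD146, chromosome 9, 44045766 to 44054024), an adhesion molecule that endothelial cells carry as well, had 69.8, 57.7, 63.5, 55.0 and 71.3 CPM, against 52.9 to 64.2 with a median of 62.6 CPM. Its log2 fold change was 0.06 ± 0.0716 (SE, edgeR adjusted p = 0.884), with an interval of 0.937-fold to 1.15-fold. The value rested on single libraries: it was 0.01 without injured-sire replicate 17, 0.02 without 12, 0.09 without 13, 0.10 without 15 and 0.02 without uninjured-sire replicate 20. The noncoding gene Gm10687 shares 732 bases of its span with Mcam on the opposite strand and had 103 to 190 counts.

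Cspg4 (chromosome 9, 56772317 to 56807154), whose product is the proteoglycan NG2, had 42.3, 40.6, 46.7, 39.9 and 40.6 CPM in offspring of injured males. In offspring of uninjured males it ran from 32.6 over a median of 38.4 to 40.3 CPM. Of the 5 libraries, 4 lay above the highest of the other group, and the groups overlapped through replicate 15. Its log2 fold change of 0.17 ± 0.0685 (SE) corresponded to 1.12-fold, with an interval of 1.02-fold to 1.24-fold, and did not pass the correction (edgeR adjusted p = 0.449). Replicate 16, left out, was at 32.9 CPM, near the lowest of all, and with it the log2 fold change was 0.11.

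Higd1b encodes a small protein of the HIG1 domain family and is a marker of pericytes, those of the lung among them. The gene (chromosome 11, 102726675 to 102728866) had 6.53, 6.03, 5.50, 6.60 and 5.09 CPM, against 4.42 to 5.46 with a median of 4.84 CPM. All 5 libraries lay above that median and 4 above the highest of the other group. This gave a log2 fold change of 0.28 ± 0.135 (SE), or 1.21-fold with an interval of 0.999-fold to 1.47-fold (edgeR adjusted p = 0.562). Lung and airway markers had the same sign without a call, with 10 of 10 measured members of that list higher. Their summed level was 43.9 to 676 CPM with a median of 259 CPM, against 1.73 to 420 CPM with a median of 4.82 CPM. The surfactant genes Sftpb and Sftpc were below the filter. Their part in the Higd1b values was not tested beyond a fit with airway and fat scores as covariates, in which its log2 fold change was 0.25.

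Vtn was the only member with a lower mean in offspring of injured males than in offspring of uninjured males. It encodes vitronectin, a protein of blood plasma and matrix that binds integrins, made mainly by liver and, in other tissues, by pericytes. The gene (chromosome 11, 78389917 to 78393150) had 24.8, 18.9, 24.4, 28.4 and 25.6 CPM in replicates 12, 13, 14, 15 and 17. In offspring of uninjured males it ran from 27.4 over a median of 29.3 to 31.4 CPM. All 5 libraries lay below that median and 4 below the lowest of the other group, so that only replicate 15 overlapped. Group means were 24.4 ± 3.43 CPM (SD, n = 5) and 29.5 ± 1.45 CPM (SD, n = 6).

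The log2 fold change of Vtn was -0.27 ± 0.0851 (SE), or 0.829-fold with an interval of 0.734-fold to 0.937-fold, and it did not pass the correction (edgeR adjusted p = 0.288). Among all genes tested, 10.9% had a lower fold change and 1.51% a smaller p. Replicate 16 was at 29.3 CPM, close to the median of the uninjured-sire group, and with it the log2 fold change was -0.22. Without replicate 13, the lowest library, it was -0.19. Liver markers had the opposite sign, also without a call: 7 of 7 measured were higher, with a summed level of 89.8 to 154 CPM against 66.0 to 129 CPM. Among them, Ttr was near level, at 0.01 in log2. Cyp2e1 was at 0.81 ± 0.431 (log2, SE), and at 0.08 with airway and fat covariates. The part of liver RNA in the Vtn values was not tested. The liver gene Alb stood at 2.66 ± 3.56 CPM (SD, n = 5) and 1.66 ± 3.14 CPM (SD, n = 6). Apoa1, Serpina1a, Fgb, Apoh and F2 were below the filter.

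**Figure D1:**
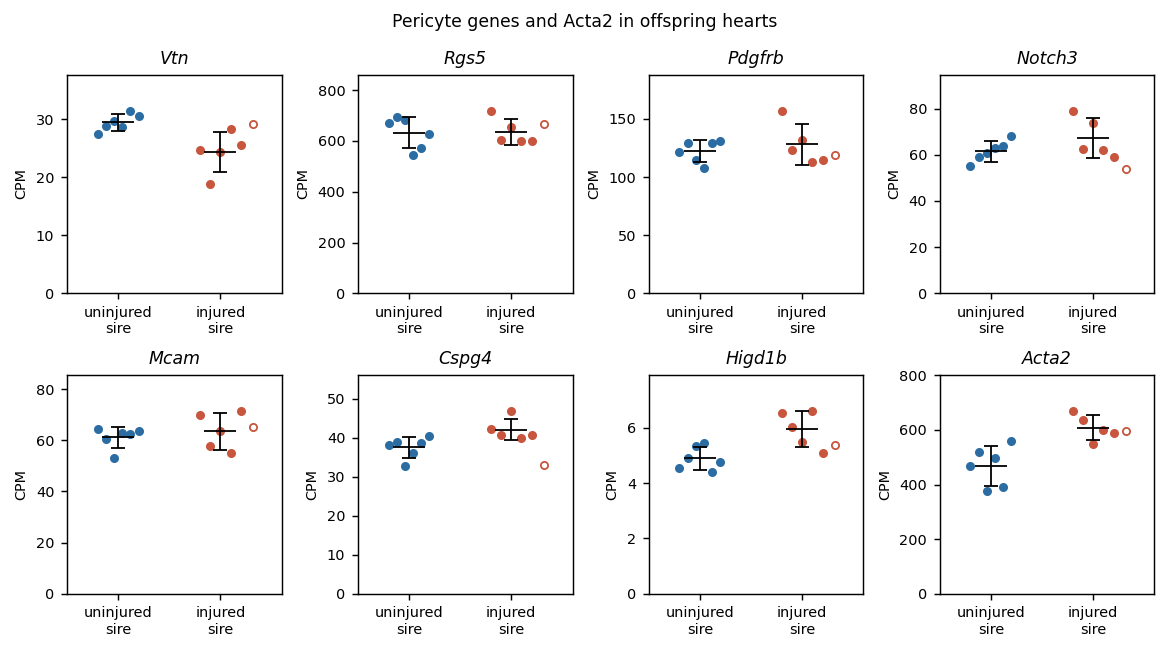
Levels of the 7 pericyte genes and of Acta2 in each library, in CPM on axes that start at 0. Filled points are the libraries compared (6 uninjured-sire, 5 injured-sire), bars show the mean and SD, and the open point is replicate 16, left out; Vtn had 4 of 5 injured-sire libraries below the whole uninjured-sire range, while Rgs5 overlapped nearly fully.

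Acta2 had a larger difference than any pericyte gene. It is the actin of contractile smooth muscle (chromosome 19, 34218490 to 34232990). It had 668, 637, 547, 600 and 589 CPM in offspring of injured males, and 376 to 559 with a median of 483 CPM in offspring of uninjured males. Only replicate 14 fell inside the range of the other group. Its log2 fold change was 0.38 ± 0.0954 (SE), or 1.30-fold, and did not pass over all genes in edgeR (adjusted p = 0.192). The DESeq2 Wald test (adjusted p = 0.00419) and edgeR with no filter (5.42e-06) called it, and its adjusted p ran up to 0.397 over the alternatives.

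Set against Acta2 library by library, all 7 members had a lower mean in offspring of injured males. Acta2 itself was higher there, and 90.8% of all genes tested had a lower fold change than Acta2. Vtn was 3.70%, 2.97%, 4.46%, 4.73% and 4.34% of Acta2 in CPM in replicates 12, 13, 14, 15 and 17, against 5.48% to 8.05% with a median of 5.81%. These ranges did not overlap, which was true of 12.2% of all genes in that direction (0.0175% in the other) and of no other member. Rgs5 was 94.7% to 119% of Acta2, against 109% to 181%. Pdgfrb was 18.9% to 24.2%, against 21.7% to 33.2%, and the other 4 members overlapped as well.

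**Figure D2:**
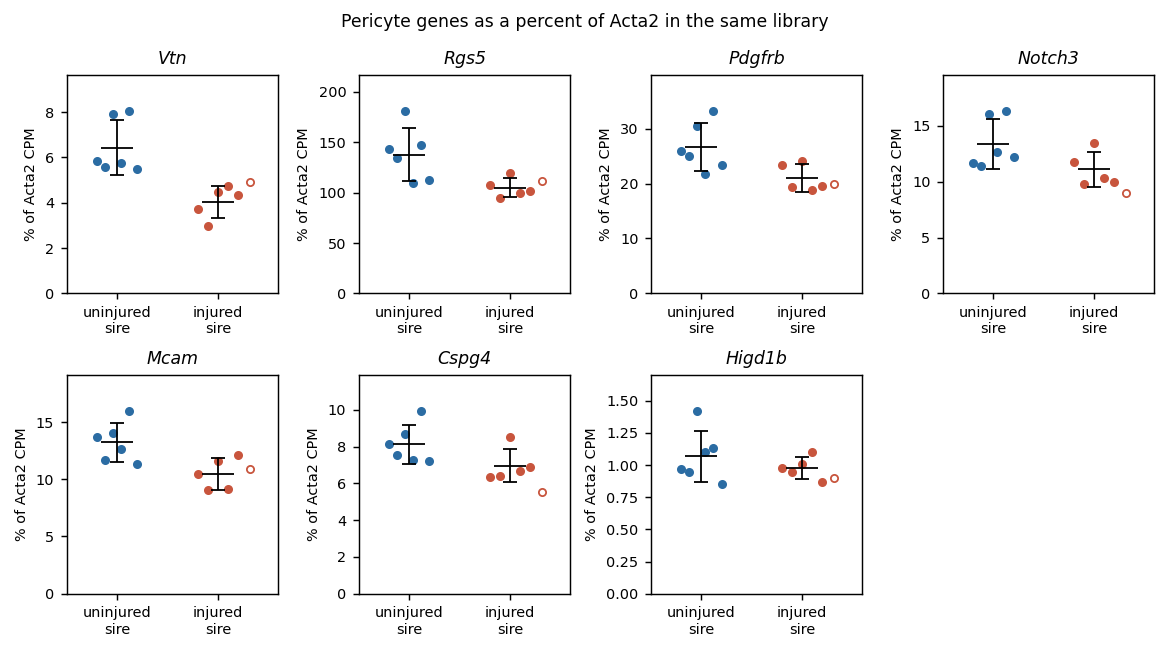
Each pericyte gene as a percent of Acta2 CPM in the same library, on axes that start at 0, with symbols as in the plot of CPM. Vtn was the member without overlap, at 2.97% to 4.73% against 5.48% to 8.05%, and the uninjured-sire libraries spanned a wider range in each panel.

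In a fit of all genes with library size scaled to Acta2, 4 members were called lower: Vtn, Rgs5, Pdgfrb and Mcam. The edgeR log2 fold change was -0.67 ± 0.147 (SE) for Vtn (adjusted p = 0.000553), -0.40 ± 0.133 for Rgs5 (0.0122), -0.34 ± 0.137 for Pdgfrb (0.0324) and -0.34 ± 0.139 for Mcam (0.0346). Notch3 (-0.27), Cspg4 (-0.22) and Higd1b (-0.13) were not called. This share of members is near the background, since 49.6% of all genes were called lower on this scale and 0.216% higher, and the median of all genes was -0.40.  Relative to that median, Vtn lay 0.27 below and the other 6 members 0.0025 to 0.27 above. Without injured-sire replicate 13 the only member called was Vtn, with 29.3% of all genes called lower. With the smooth muscle list as the reference, Vtn and Rgs5 were called, with 35.5% of all genes called lower. That list includes Acta2, at a mean of 608 CPM beside a summed median of 1774 CPM in offspring of injured males. It is therefore not a reference independent of Acta2.

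**Figure D3:**
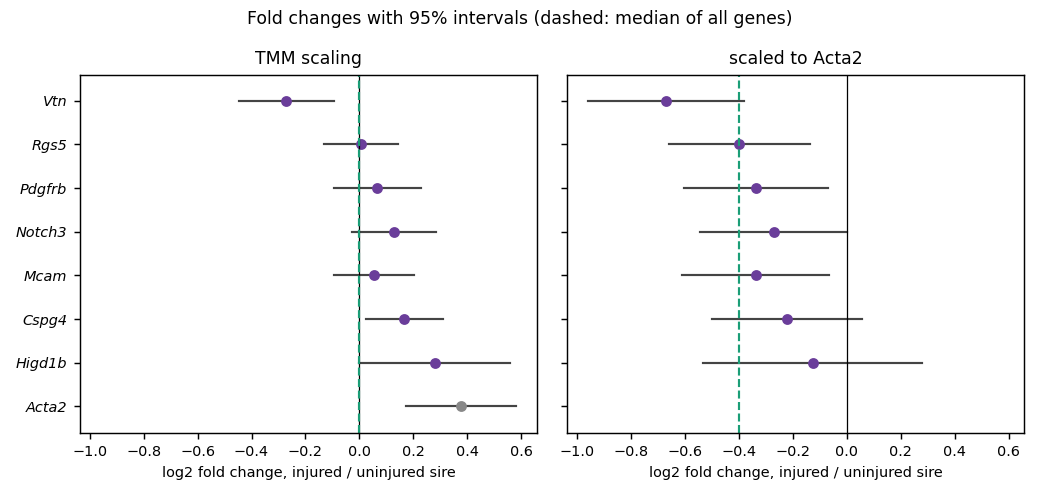
Log2 fold changes of the pericyte genes with 95% intervals, after TMM scaling on the left and scaled to Acta2 on the right, on a shared axis. The dashed line is the median of all 17130 genes, which moved from 0.00019 to -0.40 between the panels, and the members moved with it.

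Smooth muscle genes mostly shared the sign of Acta2, and further pericyte genes were split. Of 12 smooth muscle genes, Acta2 included, 11 were higher (median 0.38 in log2), and none was called. In edgeR, 8 of them had an unadjusted p below 0.05. Myl9, a myosin light chain of smooth muscle, had 168 ± 16.4 CPM (SD, n = 5) with injured and 129 ± 20.0 CPM (SD, n = 6) with uninjured fathers. DESeq2's Wald test called it (adjusted p = 0.00688), as did edgeR with no filter (5.42e-06). With airway and fat covariates its log2 fold change was 0.20, against 0.38 without them (edgeR adjusted p = 0.457). Of 20 further genes of mural cells and pericytes, 9 were higher and 11 lower, with a median of -0.02, and none was called. In edgeR, 2 of the 20 had an unadjusted p below 0.05, a share near that of all genes (8.96%). Those 2 were both lower: Rgs4, a relative of Rgs5 on the same chromosome, by -0.24 ± 0.108 (log2, SE) and Kcnj8, the pore subunit of the pericyte ATP-sensitive potassium channel, by -0.16 ± 0.0753. Kcnj8 was at -0.28 with airway and fat covariates and at -0.10 without uninjured-sire replicate 18. Abcc9, the partner subunit of that channel, was at -0.08 ± 0.0801. The difference between the lists was not tested.

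The mean log2 CPM of the 7 pericyte genes ran from 5.73 to 5.99 with injured fathers and from 5.74 to 5.84 with uninjured fathers. For the smooth muscle list the group means were 6.46 ± 0.0765 and 6.09 ± 0.284, and uninjured-sire replicate 20 was the lowest at 5.60. By the same measure (SD, n = 5 and n = 6) the endothelial list stood at 6.68 ± 0.0602 and 6.66 ± 0.0440. The difference between the pericyte and the endothelial mean was -0.84 ± 0.0850 and -0.88 ± 0.0348. It therefore differed by 0.04 between the groups, less than the SD of the injured-sire group and more than that of the uninjured-sire group. This difference between the groups was not tested. Replicate 16 had the lowest such difference of all libraries, at -1.04, with an endothelial mean of 6.80.

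**Figure D4:**
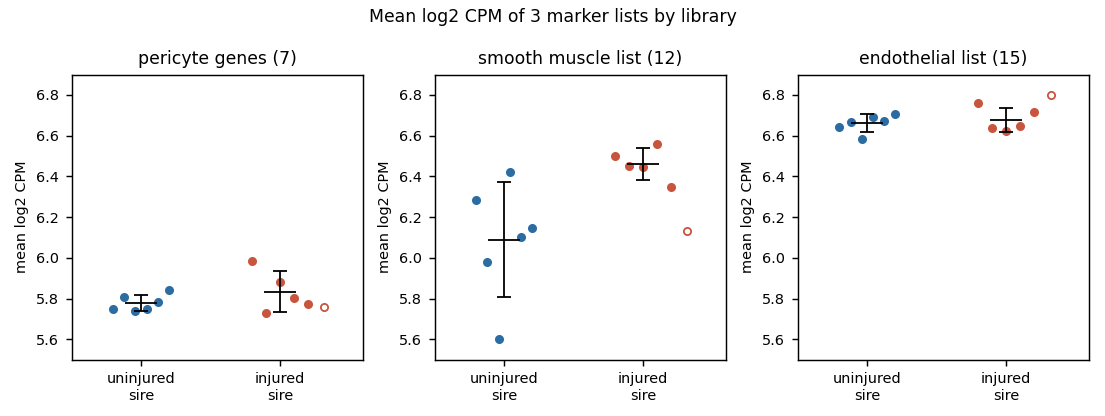
Mean log2 CPM of the pericyte genes, the smooth muscle list and the endothelial list in each library, with symbols as in the plot of CPM and one scale for all panels. The pericyte means of the groups lay close together, as did the endothelial means, while smooth muscle means ran from 5.60 to 6.42 in the uninjured-sire group.

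The signals that act on these receptors were not called in either direction. In the PDGF list, 7 of 11 genes were higher (median 0.07 in log2). Pdgfb, the ligand of Pdgfrb made by endothelial cells, had 44.0 ± 4.34 CPM (SD, n = 5) with injured fathers and 50.8 ± 6.09 CPM (SD, n = 6) with uninjured ones. On the log2 scale this was -0.20 ± 0.0842 (SE), with an adjusted p of 0.45 in edgeR. Sos1, a signalling protein downstream of the receptor, had a log2 fold change of 0.24 ± 0.0747 (edgeR adjusted p = 0.288). In the Notch list, 11 of 27 were higher, with a median of -0.03. The ligand genes Jag1 (-0.35 ± 0.0956, edgeR adjusted p = 0.189) and Dll4 (-0.26 ± 0.0876, edgeR adjusted p = 0.319) had the smallest p of that list. Their receptor genes Notch1 (-0.0020 ± 0.0709) and Notch4 (0.04 ± 0.0901), both expressed in endothelium, were near 0. Heyl, a target of Notch signalling in mural cells, was at -0.10 ± 0.0922. Other targets on the list were split, with Hes1 (-0.09) and Hey2 (-0.13) lower and Hey1 (0.15) and Nrarp (0.03) higher. The ligand genes Jag2 and Dll1 were at 0.05 and -0.30. Jag1 passed with no filter (edgeR adjusted p = 0.0134), and its adjusted p was above 0.05 in the other settings.

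Genes whose products meet those of the members gave counts of the same kind, with no call in the comparison as fitted. Among 11 partners of vitronectin, 6 were higher. Itga8, the alpha subunit of an integrin that binds vitronectin, was at 0.45 ± 0.147 (log2 fold change, SE). Itga8 passed in edgeR with no filter (adjusted p = 0.00052) and in no other setting. Among 15 measured genes of the RGS family apart from Rgs5, 9 were higher, and Rgs7 (0.40 ± 0.137) and Rgs19 (-0.46 ± 0.181) had the smallest p. Among 17 genes of angiopoietin, TGF-beta and related signals, 11 were higher. In that list S1pr1, a receptor for sphingosine 1-phosphate, was at 0.23 ± 0.0611 (edgeR adjusted p = 0.182), and Tgfb2 was at 0.32 ± 0.112. S1pr1 passed in the DESeq2 Wald test (adjusted p = 0.0402) and without uninjured-sire replicate 22 (edgeR adjusted p = 0.0232).

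Lists for the other cells of the heart had no called gene either. Endothelial genes were higher in 10 of 15, with a median of 0.03, and Vwf, which encodes von Willebrand factor, had the smallest p (0.29 ± 0.0669, edgeR adjusted p = 0.101). Vwf was called by the DESeq2 Wald test (adjusted p = 0.0112), by edgeR with no filter (0.00595) and with airway and fat covariates (0.0115). Ecscr was at -0.29 ± 0.11. Fibroblast genes were higher in 6 of 12. The smallest p of that list were those of Dcn, which was lower (-0.15 ± 0.0560, and -0.06 with airway and fat covariates), and Col1a1 (0.18 ± 0.0698). Cardiomyocyte genes were higher in 4 of 10, with Myh6 at 0.11 ± 0.0595 and Pln at -0.09 ± 0.0513. Myh6, the main heavy chain of myosin in mouse heart muscle, stood at 35400 CPM with uninjured fathers.

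Immune, nerve and fat markers were not called either in the comparison as fitted. Macrophage genes were higher in 2 of 11, with Cx3cr1 at -0.71 ± 0.2 and Fcgr1 at -1.05 ± 0.312. Cx3cr1 passed in the DESeq2 Wald test (adjusted p = 0.0437) and in edgeR with no filter (0.000169). Glial genes were higher in 6 of 9. Fat genes were higher in 11 of 11 measured, with a summed level of 1898 to 2584 CPM against 1442 to 2293 CPM, and Pnpla2 was at 0.17 ± 0.0676. Fat and lung hold pericytes of their own. In the fit that took airway and fat scores as covariates, the log2 fold changes were -0.22 for Vtn, 0.06 for Rgs5, 0.12 for Pdgfrb and 0.15 for Notch3, and no member was called.

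The 7 members did not vary as one block from library to library. Over the 11 libraries, 14 of 21 pairs had a positive Pearson r of log2 CPM, the median r was 0.11, and none passed after adjustment over the 21 pairs. The highest was Pdgfrb with Notch3, at r = 0.71 and Spearman rho = 0.60 (permutation p = 0.0143 and 0.0552, adjusted p = 0.299 and 0.289). Without the 2 libraries farthest from the median of Pdgfrb, r was 0.55. Rgs5 with Pdgfrb had r = 0.60 and rho = 0.48 (permutation p = 0.0453 and 0.138, adjusted p = 0.376 and 0.483), and r was 0.10 without the 2 libraries farthest from the median of Rgs5, so that relation rests on them. All 6 pairs with Vtn were negative, from -0.06 with Rgs5 to -0.51 with Higd1b, but these values contain the group difference of Vtn.

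Measured as deviations from the group means, which removes the difference between the groups, 16 of 21 pairs were positive, with a median of 0.12. The negative row of Vtn was not seen on this scale: 4 of its 6 pairs were positive and 2 negative, from -0.06 with Rgs5 to 0.18 with Notch3, and Vtn with Higd1b was 0.02. With Acta2 the r of Vtn was -0.63 and its rho -0.65 (permutation p = 0.0355 and 0.0369, adjusted p = 0.0829 and 0.086 over 7 members), and r was -0.55 without the 2 libraries farthest from the median of Acta2. Cspg4 had r = 0.68 and rho = 0.80 with Acta2 (permutation p = 0.0203 and 0.00435, adjusted p = 0.0829 and 0.0304), and r was 0.48 without those libraries. Rgs5, at r = 0.08, had no such value. Higd1b had r = 0.64 and rho = 0.67 (permutation p = 0.0337 and 0.0289, adjusted p = 0.0829 and 0.086), and r was 0.76 without those libraries. These pooled values contain the group difference of Acta2.

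**Figure D5:**
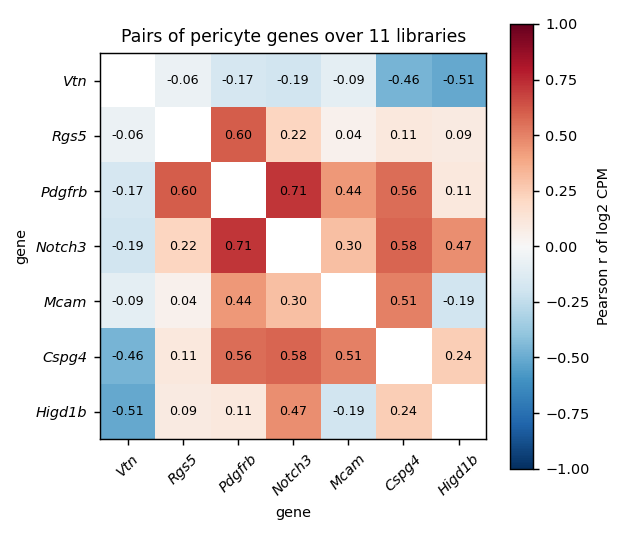
Pearson r of log2 CPM for each of the 21 pairs of pericyte genes over the 11 libraries compared, from blue (-1) to red (1). Pdgfrb with Notch3 had the highest value, 0.71, and the row of Vtn ran down to -0.51 with Higd1b, a value that was 0.02 as deviations from the group means.

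The genes most like the mean of the 7 members were sought among 9209 others whose log2 CPM averaged 3 or more. The highest Pearson r over the 11 libraries were those of Mtmr12 (0.94), Akap10 (0.87), Cyyr1 (0.86), Abcb1a (0.85) and Phlpp1 (0.85). Their Spearman rho ran from 0.65 for Phlpp1 to 0.83 for Mtmr12. These are the top of many candidates over few libraries and are given as a description. Within the members, Notch3 (r = 0.74) and Pdgfrb (0.73) followed the mean of the other 6 most closely, and Higd1b (-0.0028) and Vtn (-0.41, the group difference included) did not.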

How the data were processed

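RNA of 12 heart ventricle samples was sequenced in bulk. The authors deposited raw read counts per Ensembl gene, without normalization. Per the file headers, they were made with featureCounts 2.1.1 with strand setting 2 on the Ensembl 114 annotation of GRCm39. The submitters' processing notes name STAR 2.7.10a and Subread 2.0.3. The table also has 11 columns of other samples, which were not used. Symbols were matched by gene ID for 51487 of 78317 IDs (GENCODE M21).

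In R 4.3.3, genes were kept by edgeR 4.0.16 (filterByExpr, at least 10 counts and a total of 15), scaled by TMM and tested by its quasi-likelihood F test with robust settings, with Benjamini-Hochberg adjustment over 17130 genes. Intervals are at 95%. CPM used TMM-scaled library sizes, and log2 CPM a prior count of 2. In the second fit, library size was proportional to the Acta2 count. Correlations used 100000 permutations. Alternatives included DESeq2 1.42.0 and limma 3.58.1 voom. The steps were tested on simulated data. The naming rule took the members, Acta2, called genes or the 2 smallest p of each list, and the 5 most alike genes. Some genes that this rule takes are not reported here. Abcc9, Alb, Ttr, Notch1, Notch4, Heyl, Hes1, Hey1, Hey2, Nrarp, Jag2 and Dll1 were added after their values were seen. The members and lists were chosen with earlier results of these data known.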

Additional observations from a re-analysis of the deposited data

Results flagged for a closer look

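Of 30 groups of values checked (the members and Acta2 in CPM, and the members as a percent of Acta2), 2 held 1 library far from the others, and chance alone would give about 1 in 20. Mcam in uninjured-sire replicate 20 was 52.9 CPM, below 60.7 to 64.2 CPM in the rest of its group. Cspg4 in injured-sire replicate 14 was 8.54% of Acta2, above 6.33% to 6.90% in the rest.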

How the results depend on the processing

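No paired analysis was possible because the groups share no replicate number. No member was called in any of the settings tried: all 12 libraries, each of 11 left out, 3 other scalings, 2 other tools, 2 other filters, no mitochondrial genes, a sex-linked covariate, airway and fat covariates, and a threshold of 0.1. That threshold was applied to the comparison as fitted. Over the 22 alternative settings (edgeR, DESeq2 or voom), the adjusted p of Vtn ran from 0.0626 to 0.554. Its lowest value thus lay under 0.1 but not under 0.05. Vtn stayed negative (-0.33 to -0.19) and Notch3 (0.06 to 0.17), Mcam (0.0093 to 0.10), Cspg4 (0.11 to 0.19) and Higd1b (0.24 to 0.33) stayed positive. Signs turned for values that were never called. Rgs5 turned with upper-quartile factors (-0.0037), with no filter (-0.0126) and leaving out one library (-0.0448 to 0.0347). Leaving out one library also turned Pdgfrb (-0.0193 to 0.1069), Abcb1a (-0.0224 to 0.1109) and Cyyr1 (-0.0258 to 0.0859), each lowest without injured-sire replicate 12. The cause of these turns was not tested. Fabp4 turned from 0.19 to -0.028 with airway and fat covariates. Fabp4 is itself on the fat list, so a fit with a fat score is not a separate check of it. All genes called numbered 18, and 49 at a threshold of 0.1, 130 by the DESeq2 Wald test, 236 with no filter, 28 at 1 CPM in 5 libraries, and 8 to 43 leaving out one library. Members called against Acta2 numbered 4, with 49.6% of all genes called lower. They numbered 2 with the smooth muscle list (35.5% of all genes), 2 with no filter (16.4%), 2 without injured-sire replicate 15 (37.5%), 2 without uninjured-sire replicate 22 (33.0%) and 1 without injured-sire replicate 13 (29.3%). Leaving out one library gave 1 to 5, with 26.3% to 57.8% of all genes. Low counts limit Higd1b.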
